A study of Mus musculus with 27 samples.

Results

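The transcriptional response of the aged mouse ovary to auranofin was set against its response to TRi-1. Each response was taken against the aged untreated mice of the same experiment, and the quantity of interest was the auranofin response minus the TRi-1 response. It rests on 17 of the 27 libraries of the series. In experiment 1, 4 aged mice were untreated and 4 aged mice received TRi-1. In experiment 2, 5 aged mice were untreated and 4 aged mice received auranofin. The other libraries are young untreated ovaries. They are part of neither response and entered only the gene filter, the scaling and the estimate of spread. The labels mark the untreated mice as controls and give no strain, age in months, dose, route, duration or vehicle, and no genetic modification. Each drug was given in 1 experiment only, so a difference between the drugs and a difference in how the mice of each experiment responded to treatment cannot be told apart. Doses and durations may also have differed. One pair of compounds was compared.

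Thioredoxin reductase 1, encoded by Txnrd1, is a selenoprotein that uses NADPH to keep thioredoxin reduced, and thioredoxin in turn supplies electrons to peroxiredoxins and ribonucleotide reductase. TRi-1 was developed as an inhibitor of this enzyme. Auranofin, which contains gold, also blocks thioredoxin reductases and can bind other proteins with reactive thiols or selenols. Cells answer thiol stress through NRF2, a transcription factor held low by the cysteine-rich protein KEAP1. When KEAP1 is modified, NRF2 accumulates and raises genes for glutathione synthesis, NADPH supply, haem breakdown and thioredoxin recycling, Txnrd1 among them. In the ovary these systems serve follicles, steroid-making luteal cells, stroma, vessels and resident immune cells alike.

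The 17 libraries held between 9183605 and 14814381 counts. Steroidogenic and granulosa genes were present: Star, which moves cholesterol into mitochondria, stood at 84.9 to 595 CPM in untreated ovaries of experiment 1 and 34.1 to 379 CPM in those of experiment 2. CPM are counts scaled to a common normalised library size. Oocyte markers were scarce in these aged ovaries, with 0 to 1.76 CPM of the egg-coat gene Zp3. Haemoglobin genes took 9.52 to 22.7% of counts in untreated and 4.50 to 11.95% in TRi-1 libraries of experiment 1. In experiment 2 they took 1.26 to 5.50% in untreated and 0.468 to 5.61% in auranofin libraries. Auranofin replicate 4 stood apart, with a median correlation of 0.867 with its own group, against 0.904 to 0.935 for the other aged libraries. In bulk tissue, fewer cells of a type and less RNA per cell cannot be told apart.

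Auranofin and TRi-1 differed most clearly in 3 genes: Hmox1, Hspb8 and Srxn1. All 3 were higher after auranofin than after TRi-1, each relative to its own untreated mice. By edgeR's quasi-likelihood test with Benjamini-Hochberg adjustment at 0.05, they were the only genes called of 17484 tested, which is 0.0172%. No gene was called lower by edgeR. At an unadjusted p under 0.05, 1033 genes (5.91%) were higher and 867 (4.96%) lower. DESeq2 called 45 genes higher and 52 lower of 17709, and limma-voom 19 higher and 11 lower of 17484. Both lists held the same 3 genes. The count rose to 10 without auranofin replicate 4, to 7 without untreated replicate 2 of experiment 1 and to 5 without TRi-1 replicate 1. It was 2 to 4 when any other aged library was left out. The median standard error of a difference was 0.58 on the log2 scale, so differences of 1 log2 unit were beyond reach for most genes.

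Taken one drug at a time, auranofin raised 7 genes and lowered 3 (0.0572% of genes), and TRi-1 raised 2 and lowered none (0.0114%). At an unadjusted p under 0.05, 5.38% of genes were higher and 4.04% lower after auranofin, and 6.55% (1146 genes) higher and 5.85% (1022 genes) lower after TRi-1. DESeq2 called 119 and limma-voom 68 genes lower after TRi-1. No gene was called by edgeR under both drugs. The TRi-1 count was unstable. It was 0 in 9 of the 17 fits that left out 1 library (untreated replicate 3 and TRi-1 replicates 1 and 4 of experiment 1, untreated replicates 1, 2 and 4 of experiment 2, and auranofin replicates 1 to 3), 67 without auranofin replicate 4, and 13, 11, 9 and 5 without untreated replicates 1, 2 and 4 and TRi-1 replicate 3 of experiment 1. The auranofin count was 24 without auranofin replicate 4, 21 without replicate 2, 4 without replicate 3 and 5 without untreated replicate 2 or 4. Across all genes the 2 responses were nearly uncorrelated: Pearson's r across genes was 0.026 and Spearman's rho 0.0067, a description over genes that are not independent replicates.

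**Figure D1:**
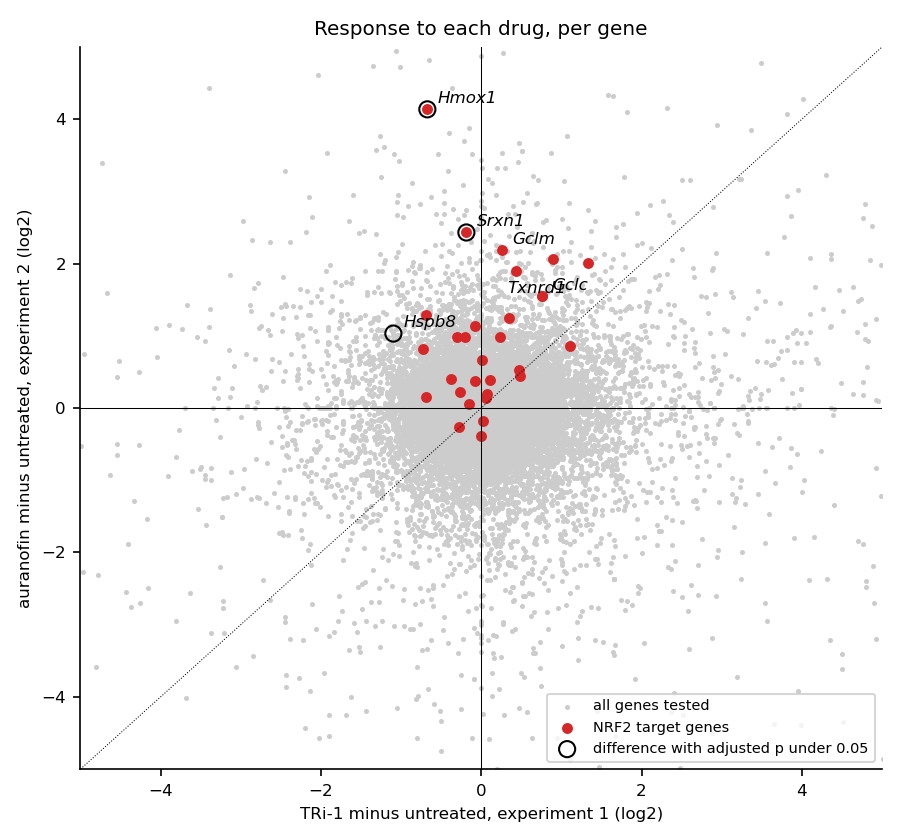
Log2 response of each gene to TRi-1 (x axis, experiment 1) and to auranofin (y axis, experiment 2), with 123 genes beyond 5 on either axis not shown and the dotted line marking equal responses. NRF2 target genes (red) lie mostly above 0 on the auranofin axis and on both sides of 0 on the TRi-1 axis, and the 3 circled genes have an adjusted p under 0.05 for the difference.

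The libraries were also compared by whether groups overlapped. TRi-1 and untreated libraries did not overlap for 760 genes that were higher (4.35% of genes) and 747 that were lower (4.27%). Auranofin and untreated libraries did not overlap for 335 higher (1.92%) and 260 lower genes (1.49%). The shares of the 2 drugs cannot be set against each other. TRi-1 was compared as 4 against 4 libraries and auranofin as 4 against 5, where full separation is rarer by chance. Both were apart in the same direction for few genes: 20 (0.114%) were apart and higher under both drugs and 8 (0.0458%) apart and lower under both. Another 16 (0.0915%) were apart in opposite directions. Of the genes named here, 4 were lower after TRi-1 and higher after auranofin without overlap, namely Hspb8, Pvr, Col4a2 and Insig2, and Abhd17a went the other way. All of these were named for a small p in the difference, a choice that favours opposite moves, so their directions add nothing to it.

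Hmox1 encodes haem oxygenase 1, which breaks haem into biliverdin, carbon monoxide and iron. The gene (ENSMUSG00000005413) lies on chromosome 8 at 75093621 to 75100589 of GRCm38. In experiment 1 it stood at 107, 70.4, 72.1 and 104 CPM in the 4 untreated ovaries and at 63.2, 33.1, 96.6 and 28.6 CPM in the 4 TRi-1 ovaries. TRi-1 replicates 1, 2 and 4 lay below every untreated ovary, and replicate 3 lay inside the untreated range. Its level in experiment 2 was 34.9, 36.6, 35.2, 40.8 and 38.1 CPM in the 5 untreated ovaries and 1008, 430.5, 359.7 and 813 CPM in the 4 auranofin ovaries. Every auranofin ovary was far above every untreated one. The log2 response (± standard error) was 4.14 ± 0.39 to auranofin (adjusted p = 8.68e-07, edgeR), a 17.6-fold ratio, and -0.67 ± 0.38 to TRi-1 (adjusted p = 0.482). The difference was 4.81 ± 0.54 (95% interval 3.70 to 5.92, adjusted p = 3.52e-05). It passed the threshold in all 27 alternative analyses, with values from 4.52 to 5.22. Untreated ovaries of experiment 2 all lay below those of experiment 1 (-1.25 on the log2 scale, adjusted p = 0.086), and red cell transcripts, from the cells that carry haem, were also lower there, as given above. Their part in the result was not tested.

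Srxn1 encodes sulfiredoxin, which repairs peroxiredoxins that have been over-oxidised. It stood at 61.96, 70.2, 114 and 95.2 CPM in untreated and 116, 31.9, 108 and 44.3 CPM in TRi-1 ovaries, so that TRi-1 replicate 1 lay just above the untreated range, replicate 3 inside it and replicates 2 and 4 below it. The values of experiment 2 were 59.6, 63.04, 63.96, 62.8 and 44.5 CPM in untreated and 468, 368, 247 and 185 CPM in auranofin ovaries, with no overlap. The log2 response was 2.43 ± 0.32 to auranofin (adjusted p = 0.000264, edgeR) and -0.19 ± 0.33 to TRi-1 (adjusted p = 0.878). The difference was 2.62 ± 0.46 (95% interval 1.67 to 3.56, adjusted p = 0.0316), a ratio of 6.13. This call was the least secure of the 3. It held in 15 of 27 alternatives. With adjusted p between 0.0646 and 0.197 it was lost when leaving out untreated replicate 3 or 4 or TRi-1 replicate 2 or 4 of experiment 1, any untreated library of experiment 2, or auranofin replicate 1 or 2, and when only aged libraries were fitted.

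Because Srxn1 and its partner in the NRF2 group, Gclm, moved with auranofin and not detectably with TRi-1, the 250 bases before their start sites are shown beside those of Hspb8, which was called without belonging to the NRF2 group. Sequences are from RefSeq on GRCm38.p6, read along the gene. Capitals mark a match to TGACNNNGC, the core of the antioxidant response element, or to TGAGTCAGC, its variant that overlaps an AP-1 site, on either strand.
Srxn1, chr2:152105274-152105523, plus strand: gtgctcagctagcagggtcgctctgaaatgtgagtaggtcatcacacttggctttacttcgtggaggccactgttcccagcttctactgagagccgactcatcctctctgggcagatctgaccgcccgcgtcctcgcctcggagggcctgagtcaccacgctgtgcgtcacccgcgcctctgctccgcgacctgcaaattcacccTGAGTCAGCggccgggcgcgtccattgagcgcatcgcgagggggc
Gclm, chr3:122245307-122245556, plus strand: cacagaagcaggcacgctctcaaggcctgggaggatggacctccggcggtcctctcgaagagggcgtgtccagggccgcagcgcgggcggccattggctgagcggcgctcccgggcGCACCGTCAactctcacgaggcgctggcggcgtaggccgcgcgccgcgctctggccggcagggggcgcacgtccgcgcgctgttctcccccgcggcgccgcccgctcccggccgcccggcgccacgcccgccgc
Hspb8, chr5:116422865-116423114, minus strand: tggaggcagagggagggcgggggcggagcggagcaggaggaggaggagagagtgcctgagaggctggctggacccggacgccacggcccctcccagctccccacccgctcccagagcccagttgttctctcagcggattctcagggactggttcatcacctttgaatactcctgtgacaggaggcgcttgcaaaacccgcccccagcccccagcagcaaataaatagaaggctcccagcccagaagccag
The Srxn1 window held TGAGTCAGC with its first base 45 bases before the start. The Gclm window held TGACNNNGC on the other strand, 134 bases before the start. The Hspb8 window held neither. These letters occur by the same search in 3433 of 32851 promoter windows (10.5%), at 3197 of 27025 genes (11.8%), and in 9 of the 25 NRF2 target genes that had a window (36%). Hmox1 and Gclc had no window. The windows of Nqo1, Slc7a11 and Ftl1 held no match, and that of Txnrd1 held one. A match describes the letters and does not show binding.

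Hspb8 encodes a small heat shock protein that works with the co-chaperone BAG3 to send misfolded proteins to autophagy. It stood at 299.8, 162, 284 and 284 CPM in untreated and 134, 124, 101 and 123 CPM in TRi-1 ovaries, all TRi-1 ovaries lying below all untreated ones. In experiment 2 it stood at 253, 189.9, 149, 226 and 273 CPM in untreated and 410.1, 335, 582 and 458 CPM in auranofin ovaries, all auranofin ovaries lying above all untreated ones. Neither response passed the threshold alone: -1.10 ± 0.23 for TRi-1 (adjusted p = 0.0642, edgeR) and 1.03 ± 0.22 for auranofin (adjusted p = 0.0658). The difference did, at 2.13 ± 0.32 (95% interval 1.48 to 2.78, adjusted p = 0.00327). In contrast to Hmox1 and Srxn1, about equal parts of it came from each drug. The untreated groups of both experiments overlapped here. The call held in 26 of 27 alternatives and had an adjusted p of 0.0537 without auranofin replicates 3 and 4 together.

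**Figure D2:**
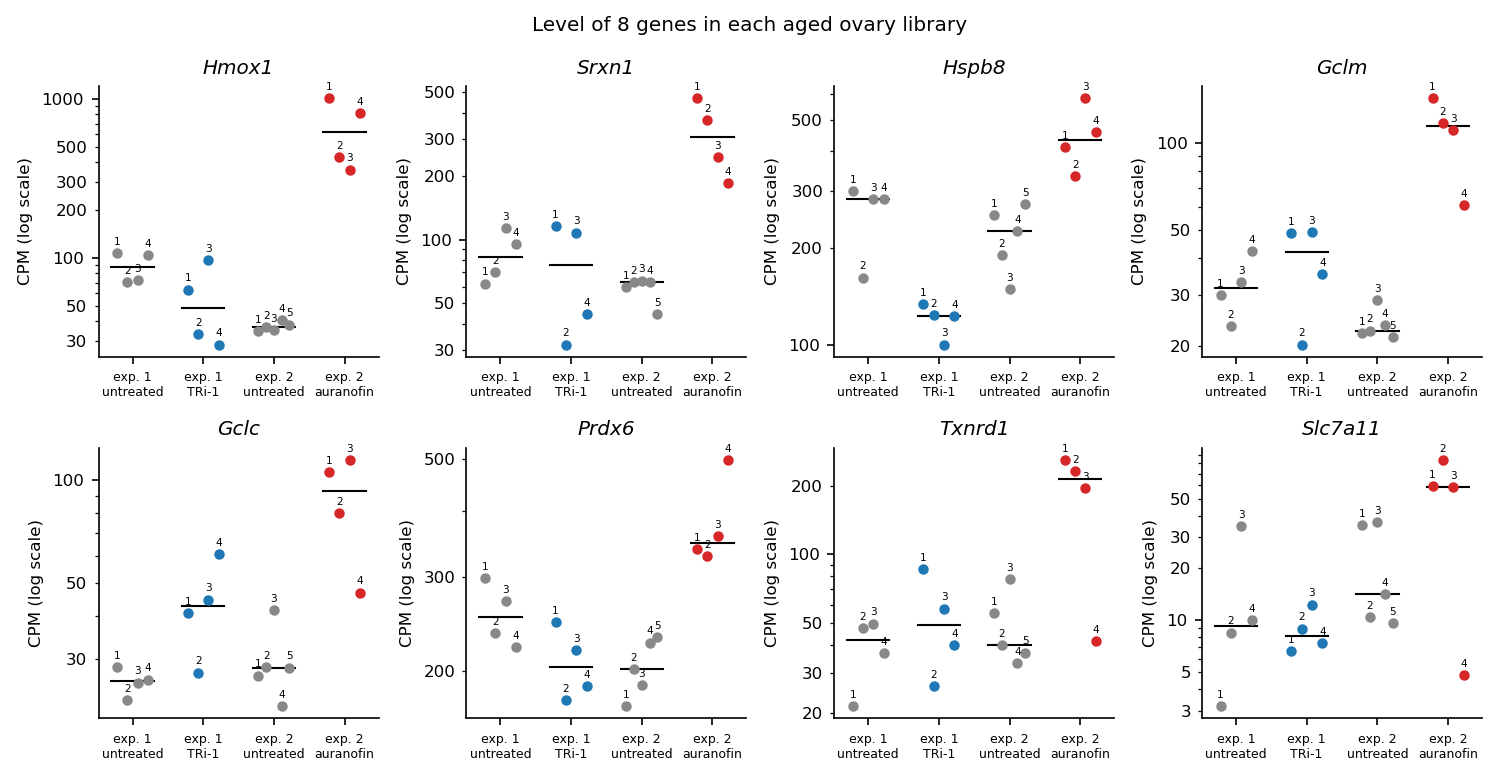
CPM (log axis) of 8 genes in each aged library, numbered by replicate, with bars at group medians. Hmox1, Srxn1 and Gclm are higher in all 4 auranofin libraries than in any untreated library of experiment 2, Hspb8 is apart in both experiments in opposite directions, and auranofin replicate 4 is low for Txnrd1 and Slc7a11.

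The genes next in line, among those with a mean of at least 5 CPM in an aged group, were chosen by their p and therefore describe the edge of the threshold without adding to it. The last member inside was Srxn1. Just outside were Flot2, a scaffold of membrane rafts (1.62 ± 0.31, adjusted p = 0.0696, edgeR), Abhd17a, an enzyme that removes palmitate from proteins (-1.87 ± 0.36, adjusted p = 0.0696), and Pvr, an adhesion receptor (1.83 ± 0.36, adjusted p = 0.072). They were followed at an adjusted p of 0.0896 by Prdx6, Notch4, Ftl1, Degs1 and Gclm, and by Eif4ebp1 at 0.106. Abhd17a was the only one of these below 0, and the scarcer Hist1h4d (-4.10 ± 0.85) shared the adjusted p of 0.0896. Abhd17a stood at 8.25, 5.71, 10.9 and 13.3 CPM in untreated and 15.9, 26.7, 16.2 and 26.2 CPM in TRi-1 ovaries. In experiment 2 Abhd17a stood at 28.8, 24.4, 26.7, 29.5 and 18.5 CPM in untreated and 10.96, 16.5, 17.7 and 16.9 CPM in auranofin ovaries. Its groups were apart in each experiment, but its untreated ovaries of experiment 2 lay 1.42 above those of experiment 1 on the log2 scale (adjusted p = 0.0124, edgeR).

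Notch4, a Notch receptor of vessel endothelium, had a difference of 3.47 ± 0.72. Its untreated ovaries of experiment 1 (5.204 to 9.902 CPM) lay above its untreated ovaries of experiment 2 (1.15 to 2.44 CPM; -2.12 on the log2 scale, adjusted p = 0.0384, edgeR). Ftl1, the ferritin light chain, which stores the iron that haem oxygenase frees, had a difference of 1.54 ± 0.32. Ferritin genes have near-identical copies in the genome, so its counts are uncertain. Degs1, which makes ceramide from dihydroceramide, had a difference of 1.07 ± 0.23. Every auranofin ovary (159.9 to 223 CPM) lay above every untreated one of experiment 2 (114 to 142 CPM). Its mean was 194 CPM in auranofin ovaries and 192 CPM in untreated ovaries of experiment 1. Degs1 in untreated ovaries of experiment 2 lay below experiment 1 (-0.58 on the log2 scale, adjusted p = 0.0657, edgeR). All 9 of these genes passed the threshold with DESeq2. With limma-voom all but Prdx6 (adjusted p = 0.0579) and Eif4ebp1 (adjusted p = 0.0519) passed. Of the 27 alternatives, these genes passed in 1 (Prdx6) to 5 (Abhd17a).

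**Figure D3:**
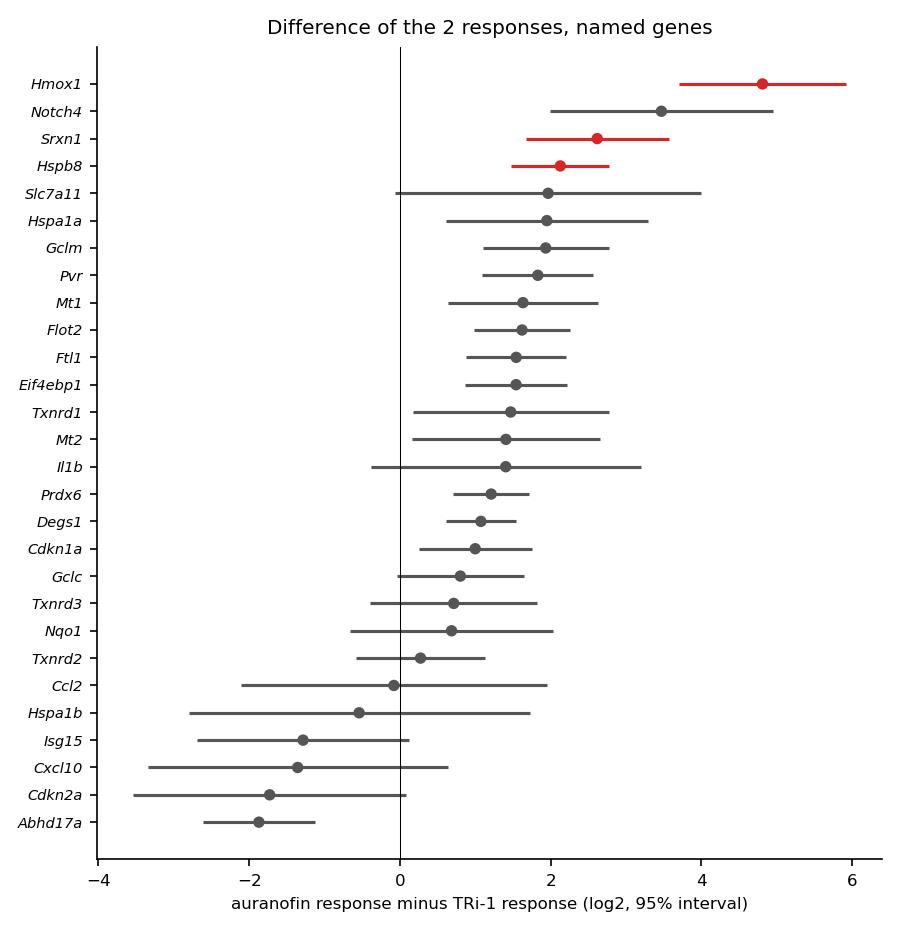
Auranofin response minus TRi-1 response (log2) with 95% intervals for the 12 genes with the smallest p at or above the expression minimum and the other fixed genes that could be tested. The 3 called genes are red, and intervals of Gclc, Nqo1, Slc7a11 and the inflammatory genes include 0.

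The NRF2 target list held 30 genes, all tested. For the difference 2 were called, Hmox1 and Srxn1, both higher, and 26 of 30 had a value above 0, with a median of 0.76 against -0.0050 over all genes. Auranofin alone raised 4 of the 30 by edgeR (Hmox1, Srxn1, Gclm and Gclc, where 0.04% of all genes were called higher), with 27 above 0 and a median of 0.84 against 0.027 over all genes. DESeq2 called 12 and limma-voom 10 of the 30 higher for auranofin, and 5 and 4 higher for the difference. TRi-1 alone gave no call by edgeR, DESeq2 or limma-voom, with 4 higher and 2 lower at an unadjusted p under 0.05, 16 above 0, and a median of 0.018 against 0.019. Over 26 alternatives, which included leaving out 2 libraries together and did not include DESeq2, the median difference ran from 0.54 to 0.83.

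Glutamate-cysteine ligase makes the first step of glutathione synthesis. Its modifier subunit Gclm stood at 29.9, 23.4, 33.03 and 42.3 CPM in untreated and 48.8, 20.2, 49.3 and 35.3 CPM in TRi-1 ovaries, which overlapped. The values of experiment 2 were 22.1, 22.5, 28.7, 23.6 and 21.4 CPM in untreated and 143, 117, 111 and 60.9 CPM in auranofin ovaries, which did not. The auranofin response was 2.19 ± 0.28 (adjusted p = 0.000256, edgeR), the TRi-1 response 0.25 ± 0.29 and the difference 1.93 ± 0.41 (adjusted p = 0.0896).

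Its catalytic subunit Gclc stood at 28.5, 22.9, 25.6 and 26.2 CPM in untreated and 40.9, 27.5, 44.8 and 60.7 CPM in TRi-1 ovaries. TRi-1 replicate 2 alone fell within the untreated range. In experiment 2 it stood at 26.9, 28.5, 41.8, 21.9 and 28.4 CPM in untreated and 105, 80.2, 114 and 46.9 CPM in auranofin ovaries, with no overlap. Gclc responded by 1.55 ± 0.28 to auranofin (adjusted p = 0.0198, edgeR) and by 0.75 ± 0.30 to TRi-1 (adjusted p = 0.292). Its difference of 0.80 ± 0.41 missed the threshold (95% interval -0.037 to 1.64, adjusted p = 0.484).

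Nqo1, a quinone reductase, stood at 1.48, 2.55, 2.53 and 2.94 CPM in untreated and 7.62, 2.67, 8.09 and 5.65 CPM in TRi-1 ovaries, where TRi-1 replicate 2 overlapped the untreated range. Its level in experiment 2 was 3.23, 3.300, 4.67, 1.81 and 1.72 CPM in untreated and 11.2, 18.6, 13.9 and 4.08 CPM in auranofin ovaries, where replicate 4 overlapped. The responses were 1.33 ± 0.48 to TRi-1 and 2.01 ± 0.45 to auranofin. By edgeR neither these nor the difference of 0.68 ± 0.65 (95% interval -0.66 to 2.03) passed the threshold. Cbr3, a carbonyl reductase, had responses of 0.75 ± 0.33 and 1.55 ± 0.32 in the same order, with an auranofin adjusted p of 0.0559 (edgeR).

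Slc7a11, which imports cystine for glutathione synthesis, stood at 3.203, 8.47, 34.9 and 9.99 CPM in untreated and 6.66, 8.94, 12.3 and 7.38 CPM in TRi-1 ovaries. The values of experiment 2 were 35.2, 10.4, 36.7, 14.1 and 9.599 CPM in untreated and 59.3, 83.96, 58.3 and 4.83 CPM in auranofin ovaries. Auranofin replicates 1 to 3 were above, and replicate 4 below, every untreated ovary. The difference was 1.97 ± 0.99 (95% interval -0.065 to 4.00, adjusted p = 0.477, edgeR).

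The target of both drugs, Txnrd1, did not pass the threshold by edgeR in either response or in their difference. The difference did not pass with DESeq2 (adjusted p = 0.313) or limma-voom (adjusted p = 0.0902) either. It stood at 21.6, 47.4, 49.6 and 36.7 CPM in untreated and 86.2, 26.3, 57.6 and 39.9 CPM in TRi-1 ovaries, which overlapped. In experiment 2 it stood at 54.97, 39.8, 77.98, 33.2 and 37.00 CPM in untreated and 259.6, 232, 195 and 41.4 CPM in auranofin ovaries. Auranofin replicates 1 to 3 were above every untreated ovary, and replicate 4 lay within the untreated range. The responses were 0.43 ± 0.46 to TRi-1 and 1.90 ± 0.44 to auranofin (adjusted p = 0.12, edgeR), and the difference was 1.47 ± 0.63 (95% interval 0.17 to 2.77, adjusted p = 0.391). Both drugs act on the protein, and the mRNA level does not measure enzyme activity. The mitochondrial Txnrd2 had a difference of 0.27 ± 0.42 (95% interval -0.59 to 1.13) and the testis-enriched Txnrd3 one of 0.71 ± 0.54 (-0.40 to 1.82).

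In the list of 22 thioredoxin reductases, thioredoxins and peroxiredoxins, 1 was called for the difference by edgeR, Srxn1 (0.0172% of all genes were called). DESeq2 called 2 higher and limma-voom 1. At an unadjusted p under 0.05, 9 were higher and 0 lower, where 5.91% and 4.96% of all genes were. Values were above 0 for 18 of 22, with a median of 0.54. The TRi-1 median was -0.22 with 4 of 22 above 0, and the auranofin median 0.22 with 17 of 22 above 0. For auranofin edgeR called 2 of the 22 higher, and DESeq2 and limma-voom 3 each. Over all genes the 3 tools called 7 of 17484, 76 of 17709 and 52 of 17484 higher. Prdx6, a peroxiredoxin that also cleaves phospholipids, rose with auranofin (0.90 ± 0.17, adjusted p = 0.0253, edgeR), from 172, 202, 188, 226 and 231 CPM in untreated to 339, 328, 358 and 499 CPM in auranofin ovaries. In experiment 1 it stood at 298, 235, 270.1 and 222 CPM in untreated and 247, 176, 219 and 187 CPM in TRi-1 ovaries, and its difference was 1.21 ± 0.25. Prdx1, which detoxifies hydrogen peroxide in the cytosol, had a difference of -0.042 ± 0.55 (95% interval -1.18 to 1.10).

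Among 24 glutathione and other selenoprotein genes none was called by edgeR for the difference. At an unadjusted p under 0.05, 5 were higher and 1 lower, where 5.91% and 4.96% of all genes were. DESeq2 and limma-voom called 1 higher each. The median was 0.32. Selenon, a selenoprotein of the endoplasmic reticulum, had -1.06 ± 0.30 under TRi-1, with no overlap, and 0.41 ± 0.28 under auranofin, with a difference of 1.47 ± 0.42 (adjusted p = 0.207, edgeR). Gsr, which recycles glutathione, had 0.28 ± 0.87.

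Of 18 cytosolic heat shock genes, 15 had a difference above 0 and 1, Hspb8, was called, and the list median was 0.36. Bag3, the partner of HSPB8, had -0.40 ± 0.22 under TRi-1 and 0.56 ± 0.21 under auranofin, with a difference of 0.96 ± 0.30 (adjusted p = 0.247, edgeR). Hspa1a, an inducible HSP70 gene, had a difference of 1.95 ± 0.65 and its near-identical neighbour Hspa1b one of -0.54 ± 1.10. Reads from these 2 genes can be assigned to either, so their separate values are uncertain, and Hspa1b was near 0 in auranofin replicate 4 (0.166 CPM, against 2.71 to 50.3 CPM in untreated ovaries). In the metallothionein and metal response list, 8 of 11 tested were above 0 (median 0.74). None was called for the difference by edgeR, DESeq2 or limma-voom, with 2 higher at an unadjusted p under 0.05 (5.91% of all genes were). For the auranofin response edgeR called none of this list, and DESeq2 and limma-voom called 1 higher each. Over all genes they called 76 of 17709 and 52 of 17484 higher. Metallothioneins bind zinc, copper and also gold. Mt1 stood at 2040.0, 2530.4, 3002 and 2144 CPM in untreated and 2031, 1714, 2369 and 1381 CPM in TRi-1 ovaries. In experiment 2 Mt1 stood at 1222, 1256, 1262, 943 and 751 CPM in untreated and 2445, 2712, 3043 and 2190.3 CPM in auranofin ovaries, without overlap. The Mt1 response to auranofin was 1.26 ± 0.33 (adjusted p = 0.174, edgeR) and the difference 1.63 ± 0.48 (adjusted p = 0.218), and Mt2 had a difference of 1.41 ± 0.61. For Mt1 the auranofin ovaries ended within the range of the untreated ovaries of experiment 1 or just above it. For Mt2 they stood at 2618, 3309, 3712 and 1331 CPM, against 1173 to 1979 CPM in untreated ovaries of experiment 1, which replicates 1 to 3 exceeded.

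The ATF4 list holds genes of amino acid supply and translation control that rise when eIF2 alpha is phosphorylated. None of its 20 genes was called by edgeR or limma-voom for the difference, and DESeq2 called 1 higher. At an unadjusted p under 0.05, 8 were higher and none lower, where 5.91% and 4.96% of all genes were. The median was 0.73, made of -0.43 under TRi-1 and 0.32 under auranofin. Eif4ebp1, which restrains cap-dependent translation, rose with auranofin (1.17 ± 0.23, adjusted p = 0.0337, edgeR), from 41.00, 46.3, 45.3, 42.2 and 33.5 CPM to 105, 75.3, 90.1 and 106 CPM. In experiment 1 it stood at 38.3, 30.6, 84.1 and 64.03 CPM in untreated and 48.3, 40.7, 47.2 and 32.3 CPM in TRi-1 ovaries, with replicates 3 and 4 of the untreated group high. Asns, asparagine synthetase, had -0.60 ± 0.30 under TRi-1, 0.96 ± 0.28 under auranofin and 1.55 ± 0.41 for the difference (adjusted p = 0.186). The 17 chaperones of the endoplasmic reticulum went the other way, with 4 above 0 and a median of -0.30. Pdia4, a disulfide isomerase, had -2.18 ± 0.65, made of 1.70 ± 0.48 under TRi-1 and -0.48 ± 0.44 under auranofin. Its untreated ovaries of experiment 2 lay 1.88 above those of experiment 1 on the log2 scale (adjusted p = 0.0487, edgeR), and the list median between the untreated groups was 0.58, with 15 of 17 above 0. None of the 17 was called for the difference by any of the 3 tools, and 2 were lower at an unadjusted p under 0.05 (4.96% of all genes were).

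**Figure D4:**
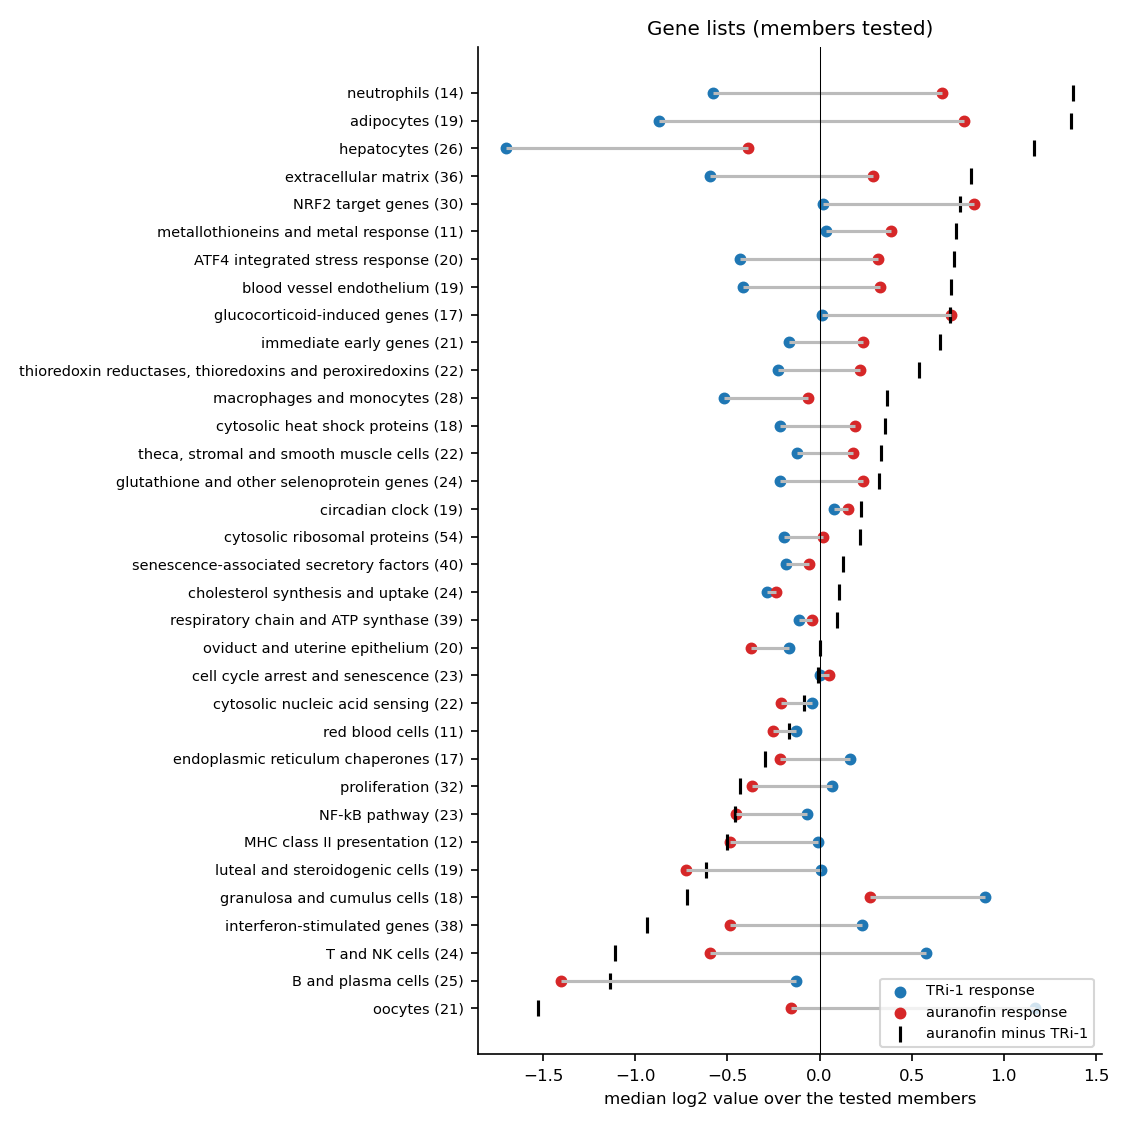
Median log2 value over the tested members of each of 34 gene lists for the TRi-1 response (blue), the auranofin response (red) and the auranofin response minus the TRi-1 response (black bars), ordered by the last. NRF2 targets have a TRi-1 median near 0 and an auranofin median of 0.84, while the oocyte, adipocyte, neutrophil and T and NK cell lists have medians on opposite sides of 0.

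Senescence and inflammatory genes were the concern of the study, whose title ties TXNRD1 to innate immune activity in senescent cells. For 23 genes of cell cycle arrest and senescence the median difference was -0.0072, and for 40 tested secretory factors of senescent cells it was 0.13. No gene of either list was called for the difference by edgeR, DESeq2 or limma-voom. At an unadjusted p under 0.05, 3 were higher and 2 lower in each, where 5.91% and 4.96% of all genes were. Cdkn1a, the cell cycle inhibitor p21, stood at 65.7, 34.6, 44.1 and 40.3 CPM in untreated and 24.1, 32.3, 28.7 and 25.2 CPM in TRi-1 ovaries, which did not overlap. In experiment 2 Cdkn1a stood at 33.8, 58.9, 54.4, 50.5 and 29.9 CPM in untreated and 57.9, 51.1, 53.3 and 55.1 CPM in auranofin ovaries, which did. Its difference was 1.00 ± 0.36 (adjusted p = 0.318, edgeR).

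Cdkn2a, the p16 and ARF locus, stood at 4.93, 8.16, 4.96 and 7.72 CPM in untreated and 9.56, 10.9, 8.19 and 8.47 CPM in TRi-1 ovaries. Its level in experiment 2 was 10.4, 8.72, 8.24, 7.76 and 6.65 CPM in untreated and 2.25, 6.98, 3.96 and 1.25 CPM in auranofin ovaries. TRi-1 ovaries lay just above the untreated ones and 3 of the 4 auranofin ovaries below theirs, with a difference of -1.73 ± 0.88 (95% interval -3.54 to 0.083, adjusted p = 0.484, edgeR). The 2 cell cycle inhibitors thus had differences of opposite sign, and neither passed.

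Il1b, the cytokine interleukin 1 beta, stood at 20.7, 24.1, 96.2 and 38.2 CPM in untreated and 17.9, 5.44, 9.81 and 8.04 CPM in TRi-1 ovaries, with no overlap. The values of experiment 2 were 90.5, 76.5, 170.1, 39.8 and 22.7 CPM in untreated and 37.2, 104, 44.9 and 7.91 CPM in auranofin ovaries, with overlap. Its responses were -2.12 ± 0.66 to TRi-1 (adjusted p = 0.174, edgeR) and -0.72 ± 0.60 to auranofin, and the difference was 1.40 ± 0.87 (95% interval -0.39 to 3.20). Ccl2, which attracts monocytes, had -0.08 ± 0.99 (-2.11 to 1.95), an interval that reaches far on both sides of 0. Il6 was too low to test, with 9 counts over the untreated and 4 over the TRi-1 libraries, and 21 over the untreated and 33 over the auranofin libraries.

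Interferon-stimulated genes had the lowest median difference of the pathway lists, -0.93, with 6 of 38 above 0. Under TRi-1 the median was 0.23 with 26 above 0, and under auranofin -0.49 with 3 above 0. None was called by edgeR, DESeq2 or limma-voom for the difference. At an unadjusted p under 0.05, 10 were lower and 1 higher, where 4.96% and 5.91% of all genes were. Over the alternatives the median difference ran from -1.02 to -0.65. Ifit3, an antiviral protein, had a difference of -2.24 ± 0.64, Psmb9, a subunit of the immunoproteasome, -1.68 ± 0.48, and Isg15, a ubiquitin-like modifier, -1.29 ± 0.69. Isg15 stood at 37.7, 63.3, 44.2 and 69.6 CPM in untreated and 84.2, 13.9, 69.1 and 48.1 CPM in TRi-1 ovaries. In experiment 2 Isg15 stood at 25.8, 16.7, 45.02, 24.01 and 36.8 CPM in untreated and 10.1, 26.2, 6.12 and 6.16 CPM in auranofin ovaries, with auranofin replicate 2 inside the untreated range. Cxcl10, a chemokine for T cells, stood at 24.6 to 139 CPM in untreated and 14.00 to 237 CPM in TRi-1 ovaries, against 19.5 to 32.96 and 2.497 to 39.8 CPM in untreated and auranofin ovaries of experiment 2. Its difference was -1.36 ± 0.97 (95% interval -3.35 to 0.63). In the NF-kB list the median was -0.46, with 7 of 23 above 0, and Relb, one of its transcription factors, had -1.69 ± 0.46 while its untreated ovaries lay 1.87 apart between experiments (adjusted p = 0.0105, edgeR). No NF-kB gene was called for the difference by the 3 tools, and 3 were lower at an unadjusted p under 0.05. The 22 tested genes of cytosolic nucleic acid sensing, which detect stray DNA and RNA, had a median of -0.087 with 10 above 0, and the 12 genes of MHC class II presentation one of -0.50 with 2 above 0. The 3 tools called none of either list for the difference, with 3 and 0 lower and 0 higher at an unadjusted p under 0.05.

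Lymphocyte markers had differences of the same sign as the interferon genes. The median difference was -1.11 for T and NK cells (3 of 24 above 0) and -1.14 for B and plasma cells (4 of 25 above 0). Without auranofin replicate 4 they were -1.79 and -2.19, and over all alternatives they ran from -1.79 to -0.80 and from -2.33 to -0.89. The summed B and plasma cell level was 11293 to 15521 CPM in untreated and 4032 to 15563 CPM in TRi-1 ovaries, and 6664 to 16192 CPM in untreated and 1003 to 26851 CPM in auranofin ovaries. The highest of all, 26851 CPM, was auranofin replicate 4, while the other 3 auranofin ovaries were below every untreated ovary of experiment 2. T and NK cell sums were 330.0 to 524 CPM in untreated, 396 to 871 CPM in TRi-1, 155 to 456 CPM in experiment 2 untreated and 124 to 517 CPM in auranofin ovaries. Every marker of both lists had counts in every aged group. Neutrophil markers went the other way, with a median of 1.38 and 14 of 14 above 0, as did macrophage and monocyte markers less clearly (0.37, 18 of 28). No gene of these 4 lists was called for the difference by edgeR, DESeq2 or limma-voom. At an unadjusted p under 0.05, 3, 1, 0 and 1 were lower and 0, 0, 1 and 2 higher, where 4.96% and 5.91% of all genes were. The B and plasma cell medians were -0.13 under TRi-1 and -1.405 under auranofin, the latter with 1 of 25 above 0. After auranofin edgeR called none of these 25, limma-voom 5 and DESeq2 1 lower. Over all genes limma-voom called 27 of 17484 and DESeq2 61 of 17709 lower. Of macrophage and monocyte markers limma-voom called 1 and DESeq2 2 lower after auranofin. The part of these cells in the differences of the interferon and cytokine genes was not tested.

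Structural lists also had medians away from 0. Of 36 extracellular matrix genes, 33 had a difference above 0, with a median of 0.82 made of -0.60 under TRi-1 and 0.29 under auranofin. None was called for the difference by edgeR, while DESeq2 called 3 and limma-voom 2, all higher. At an unadjusted p under 0.05, 14 were higher, where 5.91% of all genes were. Basement membrane collagen Col4a2 stood at 156, 108, 170.2 and 198 CPM in untreated and 75.1, 90.4, 92.7 and 78.4 CPM in TRi-1 ovaries, all TRi-1 ovaries being lower. In experiment 2 Col4a2 stood at 87.2, 100.3, 96.4, 97.9 and 67.8 CPM in untreated and 133, 136, 193 and 101 CPM in auranofin ovaries, all auranofin ovaries being higher. Its difference was 1.56 ± 0.35 (adjusted p = 0.129, edgeR), and its chain partner Col4a1 had 1.70 ± 0.41. Vessel endothelium markers had a median difference of 0.71, with 13 of 19 above 0 and none called for the difference by the 3 tools. At an unadjusted p under 0.05, 6 were higher, among them Cdh5, the endothelial cadherin, at 1.23 ± 0.43. In the list of theca, stromal and smooth muscle cells 14 of 22 were above 0 (median 0.33). For the difference none was called by edgeR and 1 was called higher by DESeq2 and by limma-voom. At an unadjusted p under 0.05, 1 was higher and 2 were lower. Its members pointed both ways: Pi16, a fibroblast marker, had a difference of 2.70 ± 0.72 (adjusted p = 0.186, edgeR) and Pdgfrb, a growth factor receptor of mural cells, one of -1.56 ± 0.71 (adjusted p = 0.417).

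Ovarian cell markers were heterogeneous. Granulosa and cumulus markers had a median difference of -0.72 (6 of 18 above 0), luteal and steroidogenic markers -0.61 (5 of 19) and oocyte markers -1.53 (7 of 21). The TRi-1 and auranofin medians were 0.90 and 0.27 for granulosa and cumulus, 0.0055 and -0.73 for luteal and 1.17 and -0.15 for oocyte markers. No gene of these lists was called for the difference by the 3 tools. Under TRi-1 DESeq2 called 1 granulosa and cumulus marker higher, where it called 129 of 10656 genes higher. For the difference at an unadjusted p under 0.05, 1, 1 and 2 were lower and 1 luteal gene higher, where 4.96% and 5.91% of all genes were. Foxl2, the transcription factor that keeps granulosa identity, stood at 4.43, 5.61, 2.62 and 6.96 CPM in untreated and 11.5, 12.5, 14.7 and 19.1 CPM in TRi-1 ovaries, without overlap, and its difference was -1.66 ± 0.59 (adjusted p = 0.304, edgeR). In experiment 2 Foxl2 stood at 2.39, 7.19, 7.64, 9.21 and 9.43 CPM in untreated and 6.903, 7.04, 6.66 and 5.99 CPM in auranofin ovaries, which overlapped. Oocyte sums were only 20.3 to 34.2, 24.7 to 33.3, 16.9 to 23.7 and 13.04 to 20.99 CPM in the 4 groups in the order above, and Padi6 and H1foo, 2 oocyte genes, were at 0 in every auranofin library and at most 1.198 and 2.79 CPM in any other aged library, so the oocyte median rests on few counts. Over the alternatives it ran from -1.70 to 0, the last without TRi-1 replicate 4.

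Tissue attached to or entering the ovary also varied between libraries. Adipocyte markers had a median difference of 1.36, with 19 of 19 above 0 and sums of 2832 to 10736 CPM in untreated, 863 to 5068 CPM in TRi-1, 1119 to 7507 CPM in experiment 2 untreated and 1004 to 17230.0 CPM in auranofin ovaries. The ranges of treated and untreated ovaries overlapped in both experiments. Under TRi-1 0 of 19 adipocyte genes were above 0, with a median of -0.87, and under auranofin 15 of 19, with a median of 0.78. Auranofin replicate 4 held the highest sum. Over the alternatives the median difference ran from 0.56 to 1.74. Hepatocyte markers had a median of 1.16, which ran from -0.80 to 2.37 over the alternatives. Alb, the liver gene for serum albumin, was at 0.3695, 93.1, 943 and 25.3 CPM in untreated and 191, 19.3, 9.62 and 3.37 CPM in TRi-1 ovaries, against 1.03 to 6.32 and 0 to 1.88 CPM in experiment 2. Of the 29 hepatocyte markers, 5 had no count in untreated and 11 none in auranofin libraries of experiment 2. Among these 2 lists edgeR and limma-voom called none for the difference and DESeq2 called 1 hepatocyte marker lower. At an unadjusted p under 0.05, 6 adipocyte and 1 hepatocyte genes were higher, where 5.91% of all genes were. Red cell markers summed to 109410.0 to 284280.0 CPM in untreated, 41344 to 126820.0 CPM in TRi-1, 11329 to 47787 CPM in experiment 2 untreated and 4295 to 68285 CPM in auranofin ovaries, and with haemoglobin genes left out before scaling the same 3 genes were called.

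**Figure D5:**
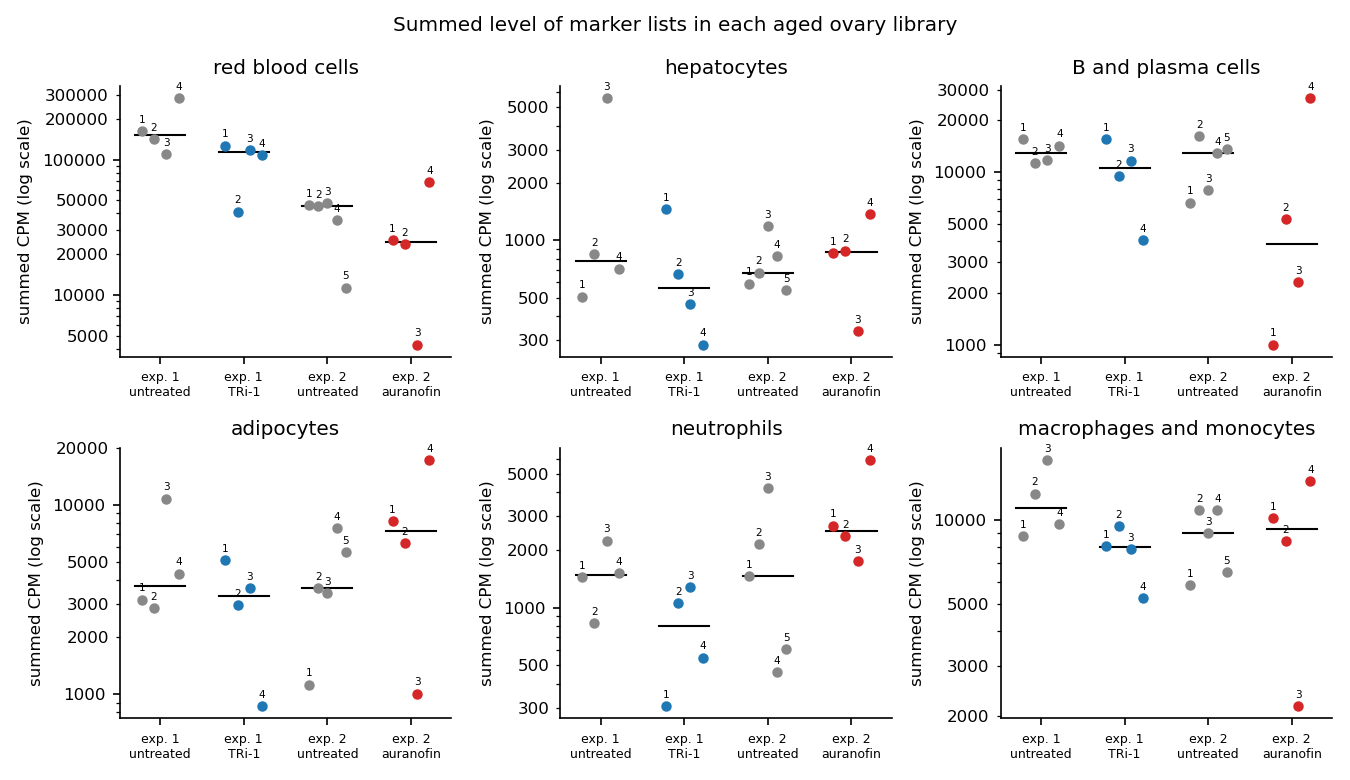
Summed CPM (log axis) of 6 cell type marker lists in each aged library, numbered by replicate, with bars at group medians. Hepatocyte markers peak in untreated replicate 3 of experiment 1, and B and plasma cell markers are lower in auranofin replicates 1 to 3 than in any untreated library of experiment 2 and highest in replicate 4.

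The control groups matter for a difference of differences, because each response starts from its own untreated ovaries. Between them edgeR called 146 genes (0.835%), 68 higher (0.389%) and 78 lower (0.446%) in experiment 2. Of these, 15 were hepatocyte markers, all lower. DESeq2 also called 15 of them lower and limma-voom none. At an unadjusted p under 0.05, 7.22% of genes were higher and 6.52% lower. The count depended on single libraries and was 17 to 30 without untreated replicate 3 of experiment 1 or without untreated replicate 1, 2 or 3 of experiment 2, 53 without untreated replicate 2 of experiment 1, 96 without untreated replicate 5 of experiment 2 and 364 without auranofin replicate 4. The 2 genes called for TRi-1 belong to this set. Taf3, a subunit of the general transcription factor TFIID, stood at 9.24, 10.8, 11.3 and 9.902 CPM in untreated and 23.9, 28.3, 18.4 and 22.5 CPM in TRi-1 ovaries (response 1.17 ± 0.20, adjusted p = 0.0375, edgeR). In experiment 2 Taf3 stood at 22.2, 24.8, 27.3, 25.5 and 16.4 CPM in untreated and 24.4, 25.7, 23.2 and 21.9 CPM in auranofin ovaries, so that only the untreated ovaries of experiment 1 stood apart, and the untreated groups differed by 1.17 (adjusted p = 0.00933).

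Luc7l3, a splicing factor, showed the same layout, with 169 to 239 CPM in untreated ovaries of experiment 1 and 345 to 479, 313 to 399 and 319 to 465 CPM in the TRi-1, untreated and auranofin groups. Its TRi-1 response was 0.96 ± 0.17 (adjusted p = 0.0375, edgeR). The translation factor Eif5b (158 to 179.9 CPM against 273 to 387, 292 to 364 and 271 to 397 CPM) and, in the other direction, Hsbp1, a binding partner of heat shock factor 1 (274 to 439.6 CPM against 180.0 to 226, 146 to 203 and 143 to 183 CPM), did so too. None of these 4 differed between the drugs at the threshold (adjusted p from 0.178 to 0.332). For these genes the TRi-1 ovaries overlapped both groups of experiment 2, and whether TRi-1 or the untreated mice of experiment 1 set them apart cannot be told from these groups.

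Genes called for auranofin alone outside the stress lists did not pass the threshold for the difference by edgeR. Zbtb16, a zinc finger repressor induced by glucocorticoids, stood at 4.01, 3.13, 5.95, 2.08 and 2.95 CPM in untreated and 13.2, 6.21, 29.1 and 27.7 CPM in auranofin ovaries, without overlap. Its auranofin response was 2.39 ± 0.40 (adjusted p = 0.00831, edgeR) and the difference 2.05 ± 0.58 (adjusted p = 0.206), and its untreated and TRi-1 ovaries of experiment 1 stood at 8.06 to 11.8 and 6.67 to 18.6 CPM. Pex6, which recycles a peroxisomal import receptor, fell with auranofin by 1.80 on the log2 scale (adjusted p = 0.00311), from 10.3, 16.2, 16.3, 13.6 and 13.6 CPM to 5.18, 2.82, 3.33 and 4.74 CPM. Its difference was -1.42 ± 0.39 (adjusted p = 0.202). The other 2 genes lowered by auranofin were scarce and passed for the difference with DESeq2 only (adjusted p = 0.00158 and 0.0163), with edgeR adjusted p of 0.0896 and 0.129: Hist1h4d, a histone H4 gene with near-identical copies, stood at 1.49 to 7.38 CPM in untreated and 0 to 0.3200 CPM in auranofin ovaries, and the transporter Slco1a4 at 0.164 to 1.62 CPM in untreated ovaries and at 0 in all 4 auranofin ovaries. In the glucocorticoid list 17 of 17 tested genes had an auranofin value above 0 (median 0.71) and 9 of 17 a TRi-1 value above 0 (median 0.012), with 1 called for auranofin, Zbtb16, and none for TRi-1 or for the difference by edgeR. DESeq2 and limma-voom called none for the difference, and 7 were higher at an unadjusted p under 0.05 (5.91% of all genes were). This list shares Mt1, Mt2, Cdkn1a and the stress gene Ddit4 with lists described above.

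The 54 cytosolic ribosomal protein genes had a median difference of 0.22, the 39 respiratory chain and ATP synthase genes 0.10, the 24 genes of cholesterol synthesis and uptake 0.10 and the 19 circadian clock genes 0.22. In the respiratory list 5 were higher and 1 lower at an unadjusted p under 0.05, where 5.91% and 4.96% of all genes were. None of this list was called for the difference by edgeR or limma-voom. DESeq2 called 1, Cox4i1, a subunit of cytochrome c oxidase, which had 1.89 ± 0.50 by edgeR (adjusted p = 0.186). TRi-1 libraries lay below all untreated ones for 18 of the 54 ribosomal protein genes and above them for 1, where 4.27% of all genes were lower without overlap. The same genes were also lower in the untreated ovaries of experiment 2 than in those of experiment 1, with a median of -0.47, 6 of 54 above 0, 4 called lower by edgeR and 27 lower at an unadjusted p under 0.05. No ribosomal protein gene was called by edgeR, DESeq2 or limma-voom for the difference, with 9 higher and 0 lower at an unadjusted p under 0.05. The 32 proliferation genes had a median of -0.43, with 6 above 0 and 5 lower at an unadjusted p under 0.05. For the difference the 3 tools called none of them but 1, Hist1h2ap, which DESeq2 called lower. Hist1h2ap is a histone H2A gene with near-identical copies. It had no count in any auranofin library, in 3 of the 5 untreated libraries of experiment 2 or in 1 library of each group of experiment 1. By edgeR the one with the smallest p was Rrm2, the ribonucleotide reductase subunit that thioredoxin helps to keep reduced, at -1.33 ± 0.53 (adjusted p = 0.354, edgeR).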

How the data were processed

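PolyA RNA of ovaries was sequenced as 3' tags (Lexogen QuantSeq), per the labels' protocols. The table holds whole-number counts per gene as deposited by the authors, with 0 columns of other samples. RSEM 1.2.3, DESeq2 and mm10 appear, without roles, per the submitters' processing notes. Annotation, filters and strand of counting are not given in the sources used here, so overlapping or antisense genes may share reads. Symbols and coordinates of 51596 of 51789 gene IDs came from GENCODE M21 (GRCm38). Groups and replicate numbers came from the labels. Replicates are taken as separate mice, and if they are not, p-values measure only the spread between libraries. Libraries of the same group were compared and none was a duplicate (chi-square per gene 21.9 to 208 over 28 pairs).

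Counts were fitted in R 4.3.3 with edgeR 4.0.16: TMM, filterByExpr on 6 groups, all 27 libraries, 1 mean per group, quasi-likelihood F tests and Benjamini-Hochberg adjustment over 17484 genes at 0.05. An adjusted p without a named tool is from edgeR. Each standard error is the log2 value over the square root of F, with 95% intervals from the t distribution. CPM use TMM library sizes. The fit was tested on simulated data. Other settings tried were DESeq2 1.42.0, limma-voom with quality weights (limma 3.58.1), RLE size factors, other filters, aged libraries only, each experiment by itself, replicate number as a block, haemoglobin genes left out, each aged library left out, and, chosen after seeing the data, 2 pairs of libraries left out.

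The genes and the 34 lists (21 pathways, 13 cell types) were chosen with earlier results of these data known, and no list was tested as a set. Named genes are the called differences with a mean of at least 5 CPM, topped up to 12 by p, 20 fixed genes and the 2 members of each list with the smallest p. Taf3, Luc7l3, Pex6, Hist1h4d, Slco1a4, Cbr3, Prdx1, Gsr, Osgin1, Eif5b, Hsbp1, Star, Zp3 and Alb fall outside that rule, having been picked with their values in view. Plots used matplotlib 3.10.9 in Python 3.11.15.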

Additional observations from a re-analysis of the deposited data

Results flagged for a closer look

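Hmox1, Hspb8 and Srxn1 responded differently to the 2 drugs by the test of the difference itself, at 4.81, 2.13 and 2.62 on the log2 scale. In 136 groups of libraries over 34 genes, 10 values, from 6 libraries, lay far from the rest of their group by Dixon's criterion, where chance gives about 1 in 20 groups, or 6.8. Auranofin replicate 4 was the lowest of its group for Txnrd1 (41.5 CPM against 195 to 260 in the other 3), Slc7a11 (4.83 CPM against 58.3 to 84.0) and Hspa1b (0.166 CPM against 22.7 to 33.5). Auranofin replicate 1 was lowest for Abhd17a (10.96 CPM). TRi-1 replicate 4 was lowest for Pvr (12.7 CPM) and Ftl1 (2335 CPM). Untreated replicate 2 of experiment 1 was lowest for Hspb8 (162 CPM against 284 to 299.8) and Flot2 (50.7 CPM against 102 to 105). Untreated replicate 3 of experiment 1 was lowest for Hspa1a (7.58 CPM) and untreated replicate 5 of experiment 2 for Srxn1 (44.5 CPM). None of these causes was tested.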

How the results depend on the processing

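The numbers of genes called moved more than the named values. For the auranofin response minus the TRi-1 response, 3 genes were called, against 97 with DESeq2, 30 with limma-voom and 2 to 10 on leaving out 1 library. For TRi-1, 2 were called, against 248 with DESeq2, 124 with limma-voom, 21 at 5 CPM, 1 with aged libraries only, 67 with experiment 1 fitted by itself and 47 without auranofin replicates 3 and 4. It was 0 with no filter, without haemoglobin genes, with the replicate block and without auranofin replicate 4 and untreated replicate 3 of experiment 1, with 2772, 2184, 1993 and 2066 genes at an unadjusted p under 0.05, and 0 to 67 on leaving out 1 library. For auranofin, 10 were called, against 137 with DESeq2, 79 with limma-voom, 3 with experiment 2 fitted by itself, 21 without auranofin replicate 4 and untreated replicate 3 of experiment 1, and 4 to 24 on leaving out 1 library. Between the untreated groups 146 were called, against 503 with DESeq2, 329 with limma-voom, 22 with aged libraries only, 43 with the replicate block, 327 without auranofin replicates 3 and 4, and 17 to 364 on leaving out 1 library. The causes were not tested.

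Same-numbered libraries of treated and untreated groups did not pair: correlations of their deviations ran from -0.153 to 0.41 over 8 pairs, with 2 over 0.1, and 1 pair correlated best with its own number. With the replicate block the difference kept 3 calls, all 3 shared with the fit without it.

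Signs turned only for differences that were not called. Ccl2 (-0.080) was 0.72 with limma-voom, 0.68 without auranofin replicates 3 and 4, 0.14 without auranofin replicate 4 and untreated replicate 3 of experiment 1, and -0.83 to 0.40 on leaving out 1 library. In the same order Hspa1b (-0.54) was 0.20, 0.021, 0.15 and -0.91 to 0.21, and Prdx1 (-0.042) was 0.10, 0.43, 0.031 and -0.42 to 0.25. Leaving out 1 library moved Gsr (0.28) between -0.10 and 0.74 and Osgin1 (0.91) between -0.0029 and 1.19, and without auranofin replicate 4 and untreated replicate 3 of experiment 1 Osgin1 was -0.078, Serpina1a -0.68 (from 5.45) and Apoc3 -0.92 (from 3.60). Of 34 list medians, the alternatives turned the sign for lists near 0, for the circadian clock list (0.22, from -0.16 to 0.28) and for macrophage, hepatocyte, granulosa and red cell markers.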
